A study of Mus musculus with 8 samples.

Results

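Solute carriers are membrane proteins named Slc followed by a family number, and 198 of the 379 such gene symbols in the deposited table were expressed in these mouse embryos. A gene was taken as expressed when it had at least 1 FPKM in at least 2 of the 8 libraries, with the values of all transcript entries of a gene summed. FPKM counts fragments per kilobase of transcript and per mapped fragment of the library, so levels can be set side by side between genes. The 198 genes fell into 46 families, and 4 of them (Slc4a1ap, Slc7a6os, Slc9a3r1 and Slc9a3r2) carry the prefix without being carriers. Of the 181 solute carriers left out, 74 were listed at 0 in all 8 libraries, 72 stayed above 0 but under 1 FPKM throughout, and 35 reached 1 FPKM in 1 library only. Just inside the threshold stood Slc1a4 with a second-highest value of 1.00 FPKM and Slc7a2 with 1.01, and just outside it Slc36a1 with 0.994 and Slc22a16 with 0.964. These genes were chosen by their measured FPKM in the same libraries, so counts over them are a description and support nothing.

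RNA of C57BL/6 embryos was measured by Smart-seq, which copies and amplifies cDNA from very small amounts of RNA, in groups labelled CX45, 8C, CX22 and 2C, with 2 libraries each. 8C was taken to mean the 8-cell stage and 2C the 2-cell stage. CX45 and CX22 are not spelled out in the labels, no group is named as a control, and the number of embryos per library is unknown here. Both 2C libraries differed by about sampling noise for the median gene, with a chi-square of 1.1 times that of chance, against 42.6 in CX45, 25.7 in 8C and 69.7 in CX22, so they were averaged and counted as 1 sample. Single genes differed by more, with 9.2% of those checked beyond the 95% point of chance.

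Most solute carriers move a nutrient, ion or cofactor down its gradient or couple it to the gradient of sodium or protons, without splitting ATP. The SLC25 family works in the inner mitochondrial membrane, SLC39 proteins bring zinc into the cytosol, and SLC30 proteins take it out or load it into vesicles. Cleavage-stage mouse embryos are known to live at first on pyruvate and lactate, to turn to glucose later, and to use amino acids such as glycine to hold their volume.

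Library depth, read from the spacing of low FPKM values, ranged from 9.72 to 20.1 M fragments (M, 1e6). A count of 3 on a 2 kb transcript then equals 0.0746 to 0.154 FPKM, as far as counting error goes. A listed 0 may also be a failed estimate. The 6 oocyte markers checked summed to between 710.5 and 958.8 FPKM in CX45 and 73.5 to 74.8 in 8C, against 36360 to 42330 in CX22 and 33140 to 35750 in 2C. Those of the 8-cell stage and pluripotency summed to between 930.4 and 1219 in CX45 and 1310 to 1654 in 8C, against 55.6 to 73.5 in CX22 and 72.3 to 73.4 in 2C. The CX45 libraries differed in 2-cell markers, at 63.9 and 575 FPKM, against 11.4 to 12.1 in 8C, 391 to 401.2 in CX22 and 312 to 319.5 in 2C. Blood markers reached 320.7 to 379.8 FPKM in CX45 and 22.8 to 34.5 in 8C, against 33.8 to 84.8 in CX22 and 111 in 2C. For cumulus and sperm markers the highest sums were 0.568 and 4.91 in CX45, 0.512 and 0 in 8C, 5.15 and 42.9 in CX22, with 9.11 and 19.6 in 2C. The part of these other cells in the results was not tested.

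Of the 198 genes, 138 and 148 reached 1 FPKM in the CX45 libraries. In 8C 124 and 125 did, in CX22 107 and 119, and in each 2C library 136. All 8 libraries had 52 of them at that level, and 27 genes had it in exactly 2 libraries. Together the 198 took 0.415% and 0.429% of the summed FPKM in CX45, 0.404% and 0.476% in 8C, 0.303% and 0.316% in CX22, with 0.297% and 0.359% in 2C. On the log2 scale replicates correlated across these genes, as a description, at 0.899 in CX45, 0.941 in 8C, 0.719 in CX22 and 0.998 in 2C. In CX22, 3 genes (Slc25a48, Slc35a5 and Slc35b1) exceeded 10 FPKM in one library while listed at 0 in its partner, as did 1 (Slc10a3) in 8C; they are named for that reason, after their values were seen.

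The 8C embryos differed from the 2C embryos in 55 of these genes: 24 rose and 31 fell. The call asked for a limma adjusted p under 0.05 over all 11873 genes tested and a log2 fold change of at least 1, on the scale of log2(FPKM + 1), which understates changes of low genes and depends on the added 1 FPKM where a group is near 0. That is 27.8% of the 198, while 37.1% of all genes tested were called (16.3% higher and 20.7% lower). The median log2 fold change was -0.29 over the 198 genes and -0.04 over all genes tested, and the first turned to 0.02 under quantile normalization. The balance of risen and fallen depended on the processing: 31 and 31 under median-ratio scaling, 31 and 32 under quantile normalization, 28 and 24 with a pseudocount of 0.1 FPKM, and 26 and 23 with a filter of 5 FPKM. The count rests on both 8C libraries: 14 genes were called without 8C replicate 1 and 17 without 8C replicate 2, and 86 without either CX22 library. In bulk embryos, fewer cells of a type and less RNA per cell cannot be told apart.

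Between CX45 and CX22, 44 of the solute carriers rose and 11 fell, again 27.8% of the 198, against 36.4% of all genes tested (23.0% higher and 13.5% lower). Quantile normalization gave 32 risen and 17 fallen. The median log2 fold change was 0.44 over the 198 and 0.47 over all genes tested. CX45 stood above 8C and CX22 in general: over all genes tested the median against 8C was 0.31, and it went to 0 under quantile normalization and to -0.0016 under median-ratio scaling. That against CX22 went to 0.06 and 0.22, so values for CX45 are to be read against that shift. The count was 29 without CX45 replicate 1, 33 without 8C replicate 1 and 32 without 8C replicate 2.

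CX22 and 2C were closer, with 7 solute carriers fallen and 0 risen, 3.5% of the 198 against 3.89% of all genes tested (0.598% higher and 3.29% lower). Before adjustment limma's p was under 0.05 for 9 higher and 32 lower. CX45 and 8C differed in 1 of the 198, 0.5% against 0.665% of all genes tested (0.463% higher and 0.202% lower). Without adjustment, limma's p was under 0.05 for 34 higher and 12 lower. The difference between these contrasts, CX45 minus 8C set against CX22 minus 2C, was called for 5 solute carriers, against 3.6% of all genes tested. The plot by class sets these changes side by side for the comparisons with more calls.

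**Figure D1:**
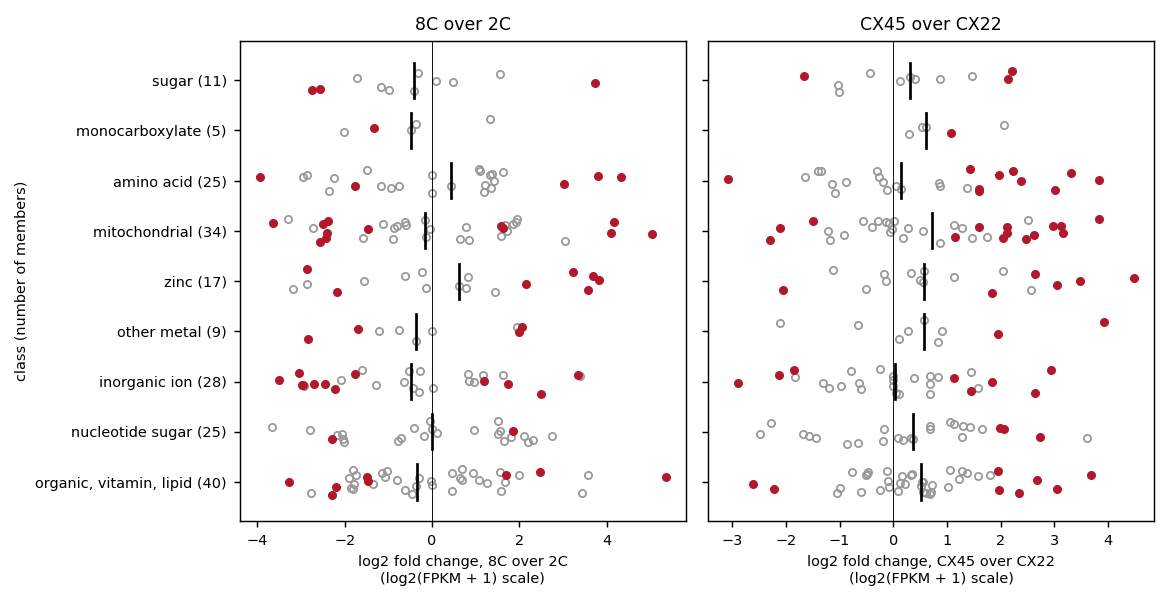
Log2 fold changes of the 194 solute carriers that are carriers by name, by class, for 8C over 2C (left) and CX45 over CX22 (right), on the log2(FPKM + 1) scale (x axis), with 1 point per gene, filled where limma called it, and a bar at each class median. Risen and fallen genes stood in the same class in most rows, with mitochondrial carriers counting 5 risen and 7 fallen in 8C and 11 risen and 3 fallen in CX45. Calls came to 35.3% and 41.2% of that class, against 37.1% and 36.4% of all genes tested. Where a group is listed at 0 the position depends on the pseudocount of 1 FPKM.

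Mitochondrial carriers, 34 genes of the SLC25 family, had the largest summed level of any class in 8C and CX45. They summed to 958.6 and 1033 FPKM in CX45, 1240.0 and 1403 in 8C, 481.7 and 442.3 in CX22, with 432.8 and 448.9 in 2C. Of the 34, 5 rose and 7 fell in 8C against 2C, or 35.3%, against 37.1% of all genes tested. In CX45 against CX22 11 rose and 3 fell, or 41.2%, against 36.4%. The class median log2 fold change was -0.15 in 8C against 2C, turning to 0.08 under median-ratio scaling. In CX45 against CX22 it was 0.71, with 0.36 under median-ratio scaling and 0.22 under quantile normalization.

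Slc25a3, the mitochondrial phosphate carrier that feeds ATP synthase (mm9 chr10:90579319-90586712), accounted for much of that sum. It stood at 419.9 and 568 FPKM in CX45, 589.7 and 794 in 8C, 51.8 and 59.1 in CX22, with 38.8 and 39.3 in 2C. The CX45 and 8C libraries lay far above all CX22 and 2C libraries. Its log2 fold change was 4.10 ± 0.33 (SE) in 8C against 2C (limma adjusted p = 0.00258) and 3.12 ± 0.27 in CX45 against CX22 (limma adjusted p = 0.00444). Slc25a5, an ADP/ATP translocase, had 102.6 and 60.8 FPKM in CX45, 376 and 269 in 8C, 49.5 and 141 in CX22, with 84.9 and 91.0 in 2C. Here 8C alone was high, but the difference from 2C did not pass (log2 1.84 ± 0.72, limma adjusted p = 0.108). The other ADP/ATP translocase, Slc25a4, lay between 2.17 and 23.3 FPKM over the 8 libraries with overlapping groups.

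Slc25a20 carries acylcarnitines into mitochondria for fatty acid oxidation. It had 16.9 and 17.1 FPKM in CX45, 30.1 and 33.3 in 8C, and 0.234 and 3.26 in CX22, while both 2C libraries listed it at 0. It rose in 8C (limma adjusted p = 0.0118) and in CX45 against CX22, where the log2 fold change of 2.97 ± 0.66 (limma adjusted p = 0.0265) was 3.87 without CX22 replicate 2 and 2.08 without CX22 replicate 1. That call was lost with a pseudocount of 0.1 FPKM (limma adjusted p = 0.0626) and without any 1 library of CX45 or 8C. Slc25a41, an ATP-magnesium/phosphate carrier, had 9.59 and 19.8 FPKM in CX45, 14.3 and 23.2 in 8C, and under 0.1 in every CX22 and 2C library. Both of its contrasts passed, at log2 4.18 ± 0.63 in 8C against 2C (limma adjusted p = 0.0103) and 3.83 ± 0.52 in CX45 against CX22 (limma adjusted p = 0.00851). Slc25a44, which takes up branched-chain amino acids, had 83.7 and 66.2 FPKM in CX45, 54.8 and 58.9 in 8C, 21.0 and 14.2 in CX22, with 18.0 and 17.5 in 2C. It rose in 8C (log2 1.62 ± 0.35, limma adjusted p = 0.0248) and in CX45 against CX22 (2.05 ± 0.29, limma adjusted p = 0.00894). Its leading transcript entry was not the same in all groups, which holds for 8 of the 93 solute carriers with several entries. Slc7a6, Slc8b1, Slc16a6, Slc17a5 and Slc35b1, given below, are among them.

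The pair of aspartate-glutamate carriers moved in opposite directions in 8C against 2C. Slc25a12, like all genes in this paragraph but Slc25a13 and Slc25a15 chosen after its values were seen, rose, with 16.5 and 18.8 FPKM in 8C against 5.49 and 4.94 in 2C (log2 1.58 ± 0.42, limma adjusted p = 0.0433). That call was lost when any library of CX45 or 8C was left out. Slc25a13 fell, with 0.269 and 1.01 FPKM in 8C against 18.3 and 19.9 in 2C (log2 -3.65 ± 0.94, limma adjusted p = 0.0392), a call lost with a pseudocount of 0.1 FPKM (limma adjusted p = 0.064). In CX45 Slc25a12 had 4.41 and 5.20 FPKM, against 4.96 and 7.34 in CX22, and Slc25a13 had 3.08 and 0.808, against 6.10 and 1.30. Neither passed there. The ornithine carrier Slc25a15 fell to 5.75 and 5.88 FPKM in 8C, against 37.2 and 37.9 in 2C, and to 11.9 and 10.5 FPKM in CX45, against 59.5 and 44.2 in CX22. Its log2 fold changes were -2.50 ± 0.34 (limma adjusted p = 0.00774) and -2.11 ± 0.27 (limma adjusted p = 0.00784). Slc25a32, for folate, and Slc25a14, of the uncoupling protein group, fell in 8C against 2C by 2.44 and 2.42 on the log2 scale (limma adjusted p = 0.0367 and 0.024). Both calls were lost without any 1 library of CX45 or 8C, and that of Slc25a32 without the filter on low values (limma adjusted p = 0.0573). Slc25a28, an iron importer known as mitoferrin, had 39.5 and 39.9 FPKM in CX45, against 7.33 and 12.9 in 8C, 11.1 and 14.0 in CX22, with 10.6 and 11.2 in 2C. It rose in CX45 against CX22 (log2 1.59 ± 0.35, limma adjusted p = 0.0261), not under median-ratio scaling (limma adjusted p = 0.0641), and against 8C it did not pass (limma adjusted p = 0.0881).

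**Figure D2:**
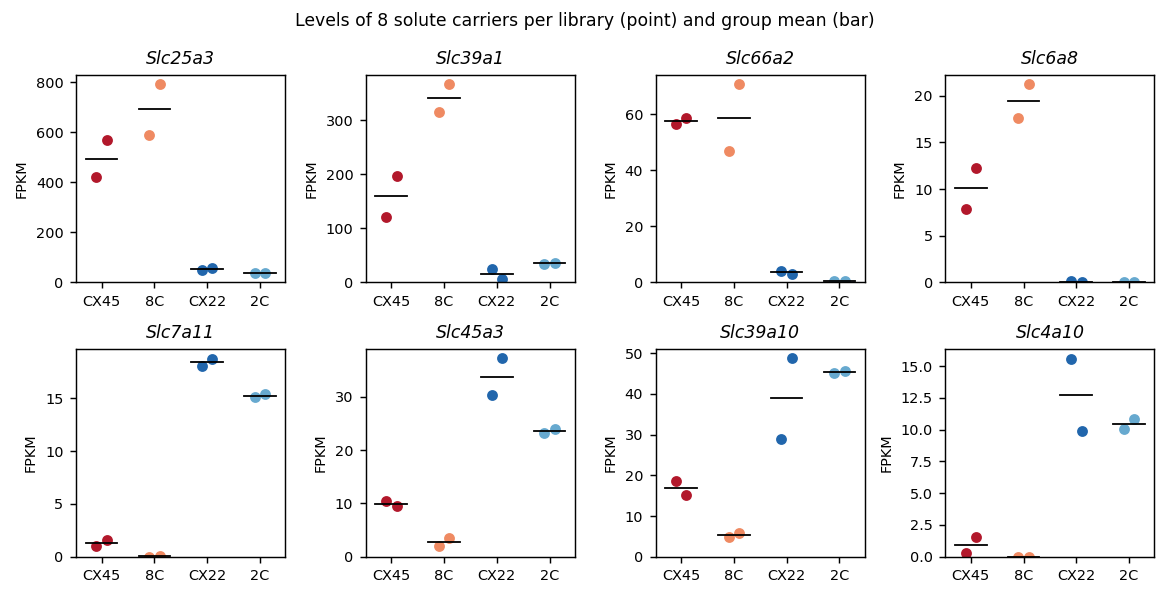
FPKM (y axis, linear, own scale per panel) of 8 solute carriers in each library (points) with the group mean (bar), for CX45, 8C, CX22 and 2C from left to right. Slc25a3, Slc39a1, Slc66a2 and Slc6a8 are high in CX45 and 8C, and Slc7a11, Slc45a3, Slc39a10 and Slc4a10 are high in CX22 and 2C.

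Zinc carriers held 17 of the genes. In 8C against 2C 5 rose and 2 fell, or 41.2%, against 37.1% of all genes tested. In CX45 against CX22 5 rose and 1 fell, or 35.3%, against 36.4%. The class median log2 fold change was 0.62 in 8C against 2C, with 0.76 under median-ratio scaling and 0.90 under quantile normalization. In CX45 against CX22 it was 0.58, with 0.30 and 0.19. Slc39a1, a zinc importer (mm9 chr3:90052114-90057534), had 121.5 and 197 FPKM in CX45, 315 and 366 in 8C, 24.8 and 6.48 in CX22, with 34.9 and 35.9 in 2C. All CX45 and 8C libraries were above all others. It rose by a log2 fold change of 3.23 ± 0.80 in 8C against 2C (limma adjusted p = 0.0357, 0.0638 without the filter on low values) and 3.49 ± 0.65 in CX45 against CX22 (limma adjusted p = 0.0171), the second being 2.60 without CX22 replicate 2 and 4.38 without CX22 replicate 1. Both calls were lost when any library of CX45 or 8C was left out.

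Slc39a4, an importer best known from the intestine and chosen after its values were seen, had 41.8 and 22.3 FPKM in CX45, 18.7 and 28.4 in 8C, 1.91 and 3.94 in CX22, with 0.964 and 0.763 in 2C. It rose in both contrasts, by 3.69 ± 0.62 in 8C against 2C (limma adjusted p = 0.0131) and 3.06 ± 0.51 in CX45 against CX22 (limma adjusted p = 0.0129). Slc39a2 was high in 8C alone, with 10.6 and 17.1 FPKM, against 0.35 and 2.53 in CX45, 0 in both CX22 libraries, and 0.0356 and 0 in 2C. It rose in 8C against 2C (limma adjusted p = 0.0168). Slc30a6, which works with Slc30a5 in loading zinc into the secretory pathway, had 15.3 and 31.4 FPKM in CX45, 23.2 and 26.9 in 8C, 0.0473 and 0 in CX22, with 1.39 and 1.01 in 2C. It rose in 8C (log2 3.56 ± 0.56, limma adjusted p = 0.0114) and in CX45 against CX22 (log2 4.49 ± 0.46, limma adjusted p = 0.00558). Slc30a5 itself lay between 9.77 and 12.0 FPKM in 8C and 2C, and between 17.1 and 42.7 in CX45 and CX22, with no call.

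Slc39a6 and Slc39a10 are importers known for the zinc uptake of the mouse oocyte, and both fell in 8C against 2C. Slc39a10 (mm9 chr1:46864389-46982621) had 18.5 and 15.2 FPKM in CX45, 4.97 and 5.80 in 8C, 29.0 and 48.9 in CX22, with 45.2 and 45.5 in 2C. Its log2 fold change was -2.86 ± 0.43 in 8C against 2C (limma adjusted p = 0.00986), and CX45 lay below CX22 in each library without passing (-1.12 ± 0.35, limma adjusted p = 0.0632). Slc39a6 had 14.4 and 8.89 FPKM in CX45, 4.18 and 3.28 in 8C, 56.5 and 44.8 in CX22, with 21.2 and 19.2 in 2C. It fell in 8C (log2 -2.17 ± 0.43, limma adjusted p = 0.02) and in CX45 against CX22 (-2.05 ± 0.35, limma adjusted p = 0.0139).

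Slc30a1, the zinc exporter of the plasma membrane and a textbook target of the zinc-sensing factor Mtf1, had 7.91 and 9.32 FPKM in CX45, 1.04 and 0.537 in 8C, 1.88 and 13.7 in CX22, with 12.3 and 11.7 in 2C. The 8C libraries were lowest, but the difference from 2C did not pass (log2 -2.87 ± 1.05, limma adjusted p = 0.0914). Its neighbour 1700034H15Rik overlaps it, and whether the counting used strand is not stated. The metallothionein genes Mt1 and Mt2, the other textbook targets of Mtf1, rose in 8C by 2.92 ± 0.30 and 2.61 ± 0.35 on the log2 scale (limma adjusted p = 0.00412 and 0.00766), with Mt1 at 4461 and 4720 FPKM in 8C against 602.2 and 609.9 in 2C. The stretch before the start of Slc30a1 is shown because it holds the core of the metal response element, TGCACNC or TGCGCNC searched on both strands, here in capitals on the reverse strand (RefSeq, GRCm38.p6, chr1:191906531-191906780, plus strand).
Slc30a1: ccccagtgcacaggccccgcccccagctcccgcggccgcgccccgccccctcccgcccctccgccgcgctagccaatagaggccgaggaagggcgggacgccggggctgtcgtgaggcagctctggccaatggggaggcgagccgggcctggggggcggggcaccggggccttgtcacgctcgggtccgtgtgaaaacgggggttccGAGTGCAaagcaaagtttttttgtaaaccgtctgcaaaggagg
The match lies 43 bases before the start. A match to the core stood in 29.1% of the 151 solute carriers with such a window, in 21.3% of all 27025 windows, in 2 of the 15 risen in 8C that had one, and in 6 of the 23 fallen. A match is a description of letters and says nothing of binding.

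By family, 9 genes were grouped as carriers of copper, iron, magnesium, manganese and heme, and the family does not show what each of them carries. In 8C against 2C 2 rose (Slc31a1 and Slc49a4) and 2 fell (Slc11a1 and Slc41a1, chosen after their values were seen). Slc11a1 counted as expressed through 2C alone, so that it is higher there was set by the choice of genes. Calls came to 44.4% of the class, against 37.1% of all genes tested. The class median log2 fold change was -0.38 and turned to 0.005 under quantile normalization. Slc31a1, the copper importer of the plasma membrane, had 44.0 and 32.8 FPKM in CX45, 25.9 and 28.9 in 8C, 6.83 and 12.2 in CX22, with 5.78 and 5.88 in 2C. It rose by 2.05 ± 0.45 in 8C against 2C (limma adjusted p = 0.0253) and 1.94 ± 0.36 in CX45 against CX22 (limma adjusted p = 0.0172). Both calls were lost when any library of CX45 or 8C was left out. Slc49a4, a carrier of the lysosomal membrane, had 52.1 and 38.2 FPKM in CX45, 39.3 and 52.1 in 8C, 1.21 and 3.04 in CX22, with 10.4 and 11.01 in 2C. It rose in CX45 against CX22 by 3.93 ± 0.42 (limma adjusted p = 0.0057) and in 8C against 2C by 1.98 ± 0.51 (limma adjusted p = 0.0391), the second not with a pseudocount of 0.1 FPKM (limma adjusted p = 0.0685). The iron importer Slc11a2 had between 14.5 and 30.4 FPKM in CX45 and 8C, against 3.51 to 16.7 in CX22 and 2C, and did not pass. The iron exporter Slc40a1 was listed at 0 in both 8C libraries and stood under 1 FPKM in CX45 and 2C, with 14.1 and 1.93 FPKM in CX22.

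Carriers of amino acids and peptides, 25 genes, gave 3 risen and 2 fallen in 8C against 2C, and 9 risen and 1 fallen in CX45 against CX22. In 8C against 2C they were called less often than all genes tested, of which 37.1% were called. In CX45 against CX22 they were called only slightly more often than all genes tested, at 36.4%. Their median log2 fold change was 0.44 in 8C against 2C, of the same sign under both other scalings, and 0.14 in CX45 against CX22, turning to -0.13 under quantile normalization. Slc6a8, the creatine carrier (mm9 chrX:70918472-70927839), had 7.87 and 12.3 FPKM in CX45 and 17.6 and 21.2 in 8C, against 0.181 and 0 in CX22 and 0.021 and 0.0196 in 2C. The CX22 and 2C values lie near or under the limit of 3 fragments. It rose by 4.32 ± 0.51 in 8C against 2C (limma adjusted p = 0.00558) and 3.32 ± 0.41 in CX45 against CX22 (limma adjusted p = 0.0072). Slc6a6, for taurine, rose likewise by 3.02 ± 0.53 and 1.96 ± 0.44 (limma adjusted p = 0.015 and 0.0265), with 12.0 and 19.2 FPKM in CX45, 30.2 and 26.7 in 8C, 4.47 and 2.16 in CX22, with 2.66 and 2.57 in 2C. Its call in 8C was lost when any 8C library was left out. That in CX45 was lost when any library of CX45 or 8C, or CX22 replicate 2, was left out.

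Slc1a1 takes up glutamate and aspartate, and it had 12.2 and 17.2 FPKM in CX45, 26.1 and 42.4 in 8C, 3.64 and 1.38 in CX22, with 1.37 and 1.53 in 2C. It rose in 8C (log2 3.81 ± 0.61, limma adjusted p = 0.0119) and in CX45 against CX22 (log2 2.22 ± 0.50, limma adjusted p = 0.0276). The call in 8C was lost when any 8C library was left out. That in CX45 was lost when any library of CX45 or 8C, or CX22 replicate 2, was left out. Slc1a5, the exchanger of glutamine and other neutral amino acids, was highest in CX45, with 51.7 and 32.3 FPKM, against 11.4 and 14.4 in 8C, 3.23 and 5.36 in CX22, with 6.03 and 5.11 in 2C. It rose in CX45 against CX22 (log2 3.01 ± 0.40, limma adjusted p = 0.00823), while 8C against 2C (limma adjusted p = 0.148) and CX45 against 8C (limma adjusted p = 0.138) did not pass. Slc7a6, a light chain for cationic and neutral amino acids, had 11.1 and 16.7 FPKM in CX45, 14.6 and 25.8 in 8C, 0 and 0.0439 in CX22, with 7.08 in both 2C libraries. CX22 was the low group here, and CX45 rose above it by 3.84 ± 0.45 (limma adjusted p = 0.0066). Slc6a14, a carrier of wide range, had 4.97 and 3.54 FPKM in CX45, 1.01 and 1.67 in 8C, 0 in both CX22 libraries, and 0 and 0.0227 in 2C, and rose in CX45 against CX22 (limma adjusted p = 0.00699). Slc3a2, the heavy chain that brings the Slc7 light chains to the membrane, lay between 5.73 and 19.9 FPKM in the 8 libraries without a call. The glycine carrier Slc6a9, the leucine carrier Slc7a5 and the cationic amino acid carrier Slc7a1 stayed under 7 FPKM in every library.

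Slc7a11, the cystine carrier whose product feeds glutathione synthesis (mm9 chr3:50168858-50247535), went the other way. It had 1.06 and 1.57 FPKM in CX45 and 0.00607 and 0.107 in 8C, against 18.1 and 18.8 in CX22 and 15.2 and 15.4 in 2C. The CX22 and 2C libraries were all above 15 FPKM, and no CX45 or 8C library reached 2. The log2 fold change was -3.95 ± 0.45 in 8C against 2C (limma adjusted p = 0.00526) and -3.08 ± 0.37 in CX45 against CX22 (limma adjusted p = 0.00681). Its start region is shown for a pair of matches to the amino acid response element, TGATGNAA searched on both strands, the motif through which Atf4 is known to act on it. Atf4 had no call in these contrasts (limma adjusted p = 0.377 and 0.212). The sequence is from RefSeq, GRCm38.p6, chr3:50443614-50443863, minus strand, with the matches in capitals, the second on the reverse strand.
Slc7a11: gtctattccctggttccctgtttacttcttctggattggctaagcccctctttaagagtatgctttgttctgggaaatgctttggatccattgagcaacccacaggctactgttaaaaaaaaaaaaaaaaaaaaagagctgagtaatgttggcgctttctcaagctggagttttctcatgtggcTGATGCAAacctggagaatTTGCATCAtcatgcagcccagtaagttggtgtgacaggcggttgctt
The matches lie 66 and 47 bases before the start. The motif stood in 3.31% of the 151 solute carriers with a window and in 3.53% of all windows, among them Slc49a4 as 1 of 15 risen in 8C and Slc7a11, Slc17a1 and Slc23a3 as 3 of 23 fallen. The E-box CACGTG, which is its own reverse complement, stood in 11.3% and 6.05%.

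Members of the SLC2, SLC5 and SLC45 families, grouped as sugar carriers, came to 11 genes, not all of which carry sugar. In 8C against 2C 1 rose (Slc5a6, a vitamin carrier) and 2 fell (Slc45a3 and the monocarboxylate carrier Slc5a12), with a median of -0.41 that turned to 0.0017 under quantile normalization, and in CX45 against CX22 2 rose (Slc5a6 and Slc5a4b) and 1 fell (Slc45a3). Slc5a12 and Slc5a4b are named after their values were seen. Calls came to 27.3% of the class in each comparison, against 37.1% and 36.4% of all genes tested. Slc2a3 had 6.71 and 6.45 FPKM in CX45, 1.43 and 3.36 in 8C, 3.67 and 2.71 in CX22, with 6.68 and 6.06 in 2C. Slc2a1 lay between 0.129 and 2.72 FPKM in the 8 libraries, and Slc2a8 between 0 and 3.89. None of these 3 facilitative glucose carriers passed the test in the 4 comparisons, and the sodium-glucose carrier Slc5a1 was under the threshold for an expressed gene. Slc5a6, the multivitamin carrier for biotin, pantothenate and lipoate, was the highest of the class. It had 74.1 and 54.0 FPKM in CX45, 158 and 165 in 8C, 9.32 and 17.5 in CX22, with 10.6 and 11.9 in 2C. It rose by 3.73 ± 0.45 in 8C against 2C (limma adjusted p = 0.00596) and 2.22 ± 0.37 in CX45 against CX22 (limma adjusted p = 0.0129). Atraid overlaps it and averaged 299 FPKM in CX45, 206 in 8C, 32.3 in CX22 and 19.3 in 2C, so reads of these genes may not be told apart. Slc45a3 (mm9 chr1:133859492-133879549), known as prostein in the human prostate, had 10.4 and 9.45 FPKM in CX45, 1.99 and 3.48 in 8C, 30.4 and 37.3 in CX22, with 23.3 and 24.0 in 2C. It fell by 2.75 on the log2 scale (SE 0.41, limma adjusted p = 0.0101) in 8C against 2C and by 1.67 (SE 0.34, limma adjusted p = 0.021) in CX45 against CX22.

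Of 5 monocarboxylate carriers, Slc16a1, for lactate and pyruvate, had the highest mean over the groups. It had 41.3 and 18.6 FPKM in CX45, 10.8 and 7.57 in 8C, 20.5 and 15.7 in CX22, with 12.7 and 13.3 in 2C, without a call in the 4 comparisons. Slc16a6 was the higher in 8C by its mean, with 14.6 and 9.38 FPKM in CX45, 5.18 and 16.4 in 8C, 0 and 8.36 in CX22, with 3.30 and 2.93 in 2C. Slc16a13 was the 1 solute carrier called in opposite directions: it fell in 8C, with 0.62 and 0 FPKM against 2.37 and 2.00 in 2C, and rose in CX45, with 1.54 and 1.06 FPKM against 0.0404 and 0.131 in CX22. Its calls (limma adjusted p = 0.0478 and 0.0482) were lost under median-ratio scaling (0.0552 and 0.0927) and quantile normalization (0.138 and 0.941). They were also lost with a pseudocount of 0.1 FPKM, without the filter on low values and without the trend. Leaving out any library of CX45 or CX22, or 8C replicate 2, lost both calls. Slc16a13 was chosen after its values were seen. Of the chaperones of these carriers, Bsg did not pass (limma adjusted p = 0.26 in 8C against 2C), and Emb fell, with 0.512 and 1.24 FPKM in 8C against 5.58 and 6.00 in 2C (log2 -1.88 ± 0.49, limma adjusted p = 0.0405). The mitochondrial pyruvate carrier genes Mpc1 and Mpc2, which lie outside the Slc symbols, rose by 1.31 ± 0.25 and 2.38 ± 0.26 in 8C against 2C (limma adjusted p = 0.0173 and 0.00472).

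**Figure D3:**
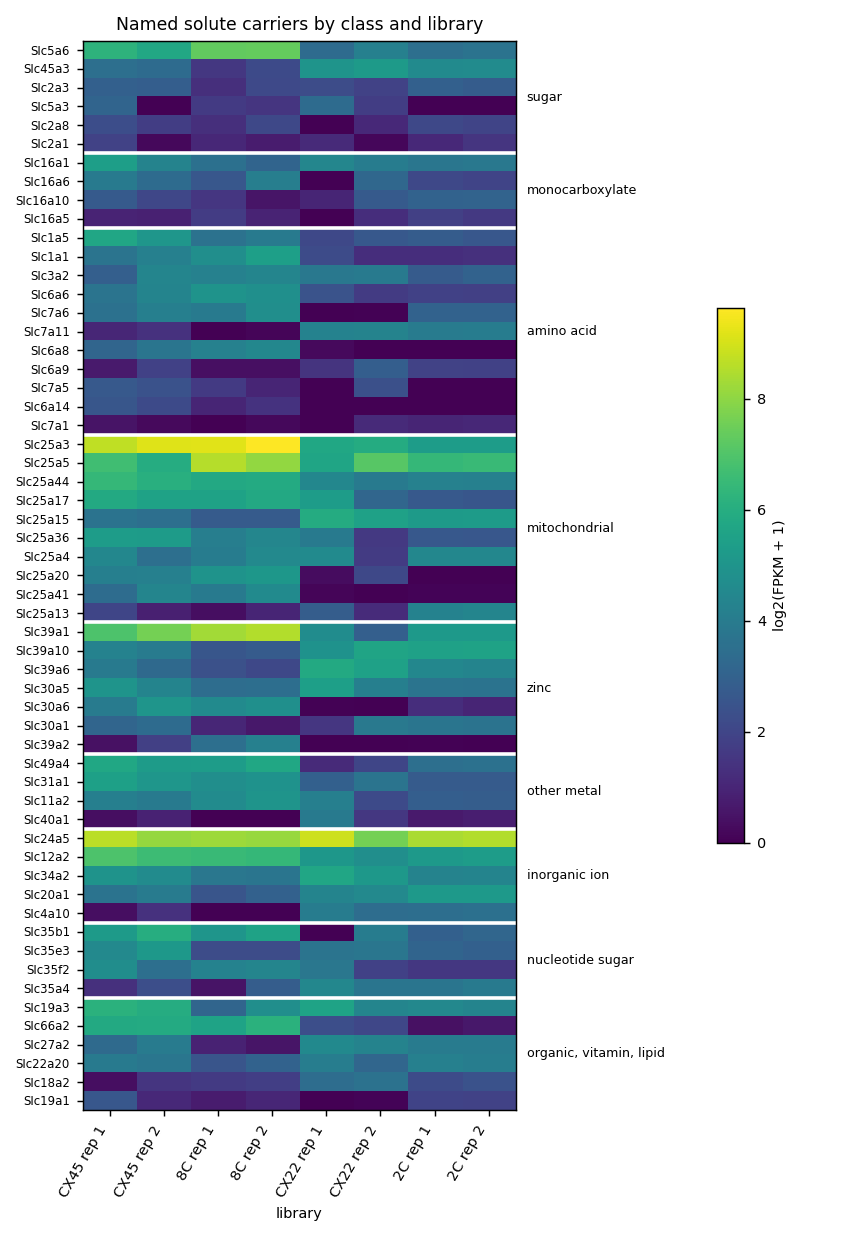
Log2(FPKM + 1) (colour) of solute carriers named by rule, by class (rows) and library (columns, CX45, 8C, CX22 and 2C from left to right). The columns of CX45 and 8C share their bright rows in the mitochondrial and zinc classes, Slc24a5 is bright in all 8 columns, and single dark cells in CX22, such as Slc35b1 at 0 and 15.4 FPKM, show where its libraries differ.

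Carriers of sodium, protons, chloride, bicarbonate, calcium, phosphate and sulfate made up 28 genes, with 4 risen and 8 fallen in 8C against 2C and 5 risen and 3 fallen in CX45 against CX22. Calls came to 42.9% and 28.6% of the class, against 37.1% and 36.4% of all genes tested. The class median was -0.48 in 8C against 2C, with -0.30 under median-ratio scaling and -0.34 under quantile normalization. Slc24a5, a potassium-dependent sodium-calcium exchanger known for pigmentation, had the highest mean of all 198 genes. It stood at 397 and 276 FPKM in CX45, 298 and 286 in 8C, 474 and 198 in CX22, with 339 and 369 in 2C. Both 8C libraries lay below both 2C libraries, the other groups overlapped, and it had no call. Myef2 overlaps it and averaged 259 FPKM in CX45, 232 in 8C, 283 in CX22 and 304 in 2C, so the level of Slc24a5 is uncertain. Slc12a2, the sodium-potassium-chloride cotransporter, had 122 and 96.9 FPKM in CX45, 90.3 and 83.9 in 8C, 33.2 and 26.1 in CX22, with 36.0 and 39.1 in 2C. It rose by 1.19 ± 0.29 in 8C against 2C (limma adjusted p = 0.035, 0.0937 under quantile normalization) and 1.85 ± 0.24 in CX45 against CX22 (limma adjusted p = 0.00781).

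The potassium-chloride cotransporter Slc12a7, like Slc8b1, Slc4a8 and Slc17a5 chosen after its values were seen, rose, with 4.97 and 4.55 FPKM in 8C against 0.016 and 0.0152 in 2C (limma adjusted p = 0.00902). The sodium-bicarbonate carriers Slc4a10 and Slc4a8 both fell. Slc4a7 of the same family, chosen after its values were seen, rose in CX45 against CX22 (log2 1.45 ± 0.40, limma adjusted p = 0.047). It had 1.68 and 3.41 FPKM in CX45 against 0 and 0.59 in CX22. How this call depends on the processing is not given here. Slc4a10 (mm9 chr2:61884572-62164800) had 0.269 and 1.56 FPKM in CX45 and was listed at 0 in the 8C libraries, against 15.6 and 9.90 in CX22 and 10.03 and 10.8 in 2C. It passed in 8C against 2C (limma adjusted p = 0.0154) and in CX45 against CX22 (log2 -2.90 ± 0.51, limma adjusted p = 0.0151). Slc4a8 fell by 3.06 ± 0.34 and 1.86 ± 0.28 on the log2 scale (limma adjusted p = 0.0049 and 0.0103). Slc8b1, the sodium-calcium exchanger of mitochondria, had 5.66 and 5.32 FPKM in CX45 and 9.20 and 9.01 in 8C, against 0 and 0.0909 in CX22 and 0 in both 2C libraries, and rose in both contrasts (limma adjusted p = 0.00628 and 0.00763). In 8C most of its FPKM came from a transcript entry listed at 0 in both CX45 libraries.

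Among phosphate carriers of the plasma membrane, Slc20a1 fell, with 4.88 and 6.93 FPKM in 8C against 36.5 and 36.1 in 2C (log2 -2.45 ± 0.38, limma adjusted p = 0.0108). In CX45 it had 11.6 and 15.1 FPKM, against 19.3 and 21.9 in CX22, without passing. Slc34a2 had 30.0 and 23.8 FPKM in CX45, 13.2 and 12.5 in 8C, 51.3 and 34.5 in CX22, with 18.6 and 19.2 in 2C, with no call.

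Nucleotide-sugar and nucleoside carriers, 25 genes of the Golgi, endoplasmic reticulum and plasma membrane, gave 1 risen and 1 fallen in 8C against 2C, and 3 risen in CX45 against CX22. Calls came to 8.0% and 12.0% of the class, against 37.1% and 36.4% of all genes tested. Some members differed widely between CX22 replicates and had large SEs, such as 1.67 for Slc35b1 and 1.62 for Slc35a5 in 8C against 2C. The class median of -0.01 in 8C against 2C turned to 0.11 under median-ratio scaling. Slc35b1, which carries ATP into the endoplasmic reticulum, had 37.2 and 63.0 FPKM in CX45, 31.9 and 45.3 in 8C, 0 and 15.4 in CX22, with 6.80 and 8.17 in 2C. CX45 and 8C were above CX22 and 2C in every library, yet neither contrast passed (limma adjusted p = 0.344 in 8C against 2C and 0.103 in CX45 against CX22). Slc35e3 had 22.1 and 33.8 FPKM in CX45, 3.70 and 3.78 in 8C, 12.2 and 12.9 in CX22, with 7.50 and 6.82 in 2C, and CX45 against 8C just missed (limma adjusted p = 0.0569).

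The remaining 40 genes carry organic ions, vitamins, lipids and vesicle contents, and 3 rose and 5 fell in 8C against 2C, while 6 rose and 2 fell in CX45 against CX22. In both comparisons this class was called less often than all genes tested, of which 37.1% and 36.4% were called. The medians, -0.34 and 0.52, shrank to -0.24 and 0.24 under median-ratio scaling and to -0.07 and 0.04 under quantile normalization. Slc66a2, a membrane protein with PQ loops, had the highest log2 fold change of the 198 in 8C against 2C on the log2(FPKM + 1) scale. With a pseudocount of 0.1 FPKM it had 6.75, under the 8.31 of Slc25a20. It had 56.4 and 58.7 FPKM in CX45 and 46.8 and 70.7 in 8C, against 3.97 and 3.17 in CX22 and 0.345 and 0.524 in 2C. The difference was 5.35 ± 0.39 in 8C against 2C (limma adjusted p = 0.00227) and 3.69 ± 0.32 in CX45 against CX22 (limma adjusted p = 0.00444). Slc27a2, which activates and carries very long chain fatty acids, fell in 8C, with 0.90 and 0.45 FPKM against 14.9 and 15.3 in 2C (log2 -3.28 ± 0.48, limma adjusted p = 0.00967). CX45 had 9.15 and 15.0 FPKM of it, against 22.6 and 19.1 in CX22. It lay above 8C by 2.94 ± 0.40 without passing (limma adjusted p = 0.0604).

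The thiamine carriers Slc19a3 and Slc19a2 were highest in CX45. Slc19a3 had 70.5 and 60.9 FPKM in CX45, 7.92 and 25.8 in 8C, 47.7 and 19.8 in CX22, with 21.3 and 19.1 in 2C, with no call. Slc19a2, chosen after its values were seen, had 15.1 and 8.48 FPKM in CX45, 0.356 and 1.47 in 8C, 1.27 and 1.65 in CX22, with 0.818 and 0.878 in 2C, and rose against CX22 (log2 2.33 ± 0.51, limma adjusted p = 0.0253) but did not pass against 8C (0.0881). The call against CX22 was lost with a pseudocount of 0.1 FPKM (limma adjusted p = 0.0647) and without any 1 library of CX45, 8C or CX22. Slc18a2, the vesicular monoamine carrier, fell in CX45, with 0.286 and 1.80 FPKM against 9.92 and 11.2 in CX22 (log2 -2.61 ± 0.51, limma adjusted p = 0.0194). Slc17a5, the lysosomal exporter of sialic acid, rose in 8C, with 9.10 and 6.33 FPKM against 0.57 and 0.533 in 2C (limma adjusted p = 0.0185). CX22 had 7.34 and 6.14 FPKM of it, all from a transcript entry listed at 0 in 8C and CX45.

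The 7 genes that fell in CX22 against 2C were all low in 2C, at no more than 6.27 FPKM, and 5 of them were listed at 0 in both CX22 libraries. All counted as expressed through 2C alone, so that they are higher there was set by the choice of genes. Among them were Slc25a53, an orphan mitochondrial carrier, Slc25a29, for basic amino acids, Slc46a3 of the lysosome, the sulfate carrier Slc13a1, the sodium-proton exchanger Slc9a4, and Slc7a15, all chosen after their values were seen. Slc25a53 had 0 in both CX22 libraries against 6.27 and 5.66 FPKM in 2C (limma adjusted p = 0.00451), and its call alone held under every alternative tried. Slc13a1 had 0 against 4.83 and 4.68 FPKM (limma adjusted p = 0.018), and lost its call when CX22 replicate 1 or any CX45 library was left out. The comparison of 8C with 2C shares the 2C sample, and in 8C these 6 genes had at most 0.516 FPKM. With 8 separate libraries 36 solute carriers were called in CX22 against 2C, and without the trend in the spread 1 was. The count was 4 without either 8C library, 13 without CX22 replicate 1 and 14 without CX22 replicate 2.

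Between CX45 and 8C, Slc22a28, an organic anion carrier by family and chosen after its values were seen, was the 1 solute carrier that rose. It had 8.69 and 10.6 FPKM in CX45, against 0.0279 and 0.246 in 8C, 0.561 and 0.742 in CX22, with 0.291 and 0.505 in 2C. It counted as expressed through the CX45 libraries alone, so that it is high there was set by the choice of genes. Its log2 fold changes were 3.23 ± 0.30 against 8C (limma adjusted p = 0.0458) and 2.68 ± 0.30 against CX22 (limma adjusted p = 0.00627). The first call is marginal: it was lost under median-ratio scaling (limma adjusted p = 0.0611), under quantile normalization (0.0709) and without any 1 library of CX45, 8C or CX22.

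The comparisons of 8C with 2C and of CX45 with CX22 share no library, though they share 1 fit and its estimate of spread. In both, 28 solute carriers were called, 27 of them in the same direction, 19 risen and 8 fallen, which is 49.1% of either list. Over all genes tested 2748 were called in the same direction, or 62.5% of the calls in 8C against 2C and 63.5% of those in CX45 against CX22. Across genes the log2 fold changes had a correlation of 0.664 for the 198 solute carriers and 0.789 for all genes tested, as a description. The 24 genes risen in 8C had a median of 15.1 FPKM in CX45, 24.3 in 8C, 2.32 in CX22 and 0.708 in 2C. The 31 fallen had a median of 0.704 FPKM in CX45, 0.219 in 8C, 2.44 in CX22 and 6.72 in 2C. Both sets were chosen by their call in 8C against 2C, so the gap between the 8C and 2C medians was set by that choice. For most genes named by rule or here the calls were checked, 41 in 8C against 2C and 35 in CX45 against CX22. Under every alternative that tested them, including each library left out in turn, 13 and 17 of these held. Slc25a3, Slc66a2, Slc6a8, Slc7a11 and Slc8b1 are in both sets. Slc13a1, Slc25a29, Slc25a53, Slc46a3, Slc7a15 and Slc9a4, among the 13, counted as expressed through 2C alone. Slc22a28, among the 17, did so through CX45 alone. That these genes are high there was set by the choice of genes. A call given above without a note on libraries left out may be among those lost. Of the 41 calls, 28 were lost without 8C replicate 1 and 26 without 8C replicate 2. Of the 35, 16 were lost without CX45 replicate 1 and 13 without CX45 replicate 2, with 11 and 12 lost without 8C replicate 1 and 2.

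**Figure D4:**
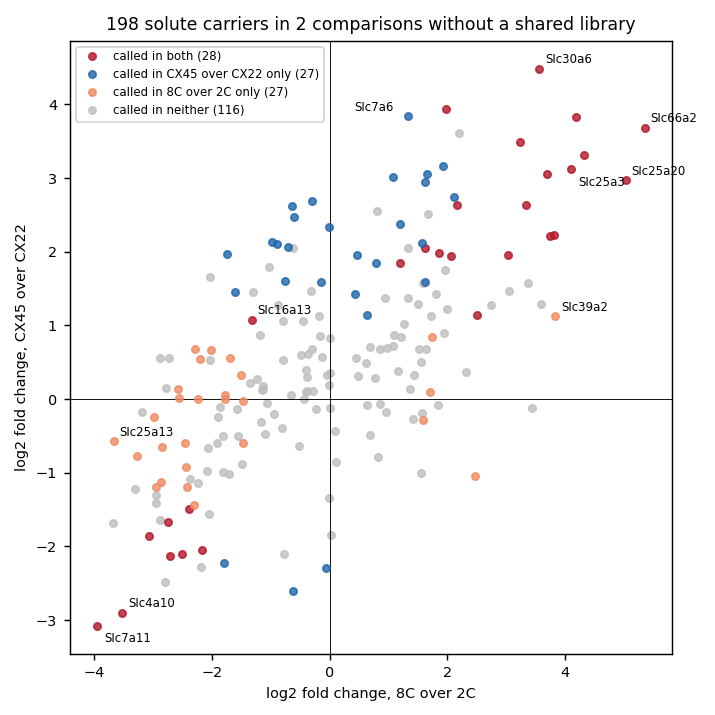
Log2 fold change of each of the 198 solute carriers in 8C over 2C (x axis) and in CX45 over CX22 (y axis), on the log2(FPKM + 1) scale, coloured by where limma called it. The 28 genes called in both lie at the upper right and lower left, except Slc16a13 at the upper left.

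Genes that work with these carriers were taken from a list of 36, all tested. In 8C against 2C 13 rose and 5 fell, in CX45 against CX22 14 rose and 3 fell, and the other pairs of groups gave 0 calls. Over all genes tested 37.1% and 36.4% were called in these comparisons, and the list was chosen with earlier results known, so its counts are a description. Timm22, the channel that inserts carriers into the inner mitochondrial membrane, had 47.0 and 47.7 FPKM in CX45 and 70.6 and 73.2 in 8C, against 0.271 and 0 in CX22 and 1.80 and 3.10 in 2C. It rose by 4.40 ± 0.35 in 8C against 2C (limma adjusted p = 0.00252) and 5.42 ± 0.28 in CX45 against CX22 (limma adjusted p = 0.00325). Its small helper Timm9 rose in 8C (3.10 ± 0.56, limma adjusted p = 0.0155). Of the channels of the outer membrane, Vdac2 fell, with 18.8 and 24.5 FPKM in CX45 and 30.7 and 34.4 in 8C, against 134 and 142 in CX22 and 162 and 158 in 2C (limma adjusted p = 0.00612 in 8C against 2C and 0.00444 in CX45 against CX22), while Vdac3 had no call. Vdac1 rose in CX45 against CX22, with 23.5 and 12.4 FPKM against 4.48 and 5.37 (log2 1.62 ± 0.39, limma adjusted p = 0.0325). Atp1b3, a subunit of the sodium pump whose gradient drives many carriers, rose by 2.19 ± 0.25 and 1.91 ± 0.21 (limma adjusted p = 0.00538 and 0.00586), and so did the transferrin receptor gene Tfrc, by 1.74 ± 0.32 and 1.91 ± 0.26 (limma adjusted p = 0.0168 and 0.00876). Hexokinases Hk1 and Hk2 rose in 8C against 2C, with Hk2 at 12.4 and 5.52 FPKM in 8C against 1.13 and 1.02 in 2C (limma adjusted p = 0.0489). Rragc and Lamtor2, of the lysosomal amino acid sensor, fell in 8C by 4.95 and 3.79 on the log2 scale, and Lamtor1 of the same complex rose by 3.77.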

How the data were processed

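Smart-seq libraries of C57BL/6 embryos, 8 in all, were sequenced on a BGISEQ500. Per the submitters' processing notes, the authors used HISAT2 (listed with version 4.8.2), Cufflinks 2.2.1 and the build mm9; their settings, annotation release and strand use were not found in the labels. The deposited values are FPKM, made by the authors for each RefSeq transcript and library. Here 41685 of 41876 entries matched a gene symbol, and FPKM were summed per gene (24921 genes). Genes with at least 1 FPKM in at least 2 of 8 libraries were tested (11873). All 4 groups were fitted together on log2(FPKM + 1) with limma 3.58.1 in R 4.3.3, with a trend on mean expression, 7 samples (2C averaged as 1) and 3 residual degrees of freedom. P-values are two-sided and Benjamini-Hochberg adjusted over all genes tested. The spread of 2C was taken from the other groups, and its values carry no SD. Nothing says that replicates are separate cultures or embryos, so p-values measure only their spread, possibly a technical one. Depth was inferred from steps between low values, with 65.3% to 72% of the values within 0.05 of whole fragments. Fragments of amplified cDNA are not independent molecules.

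Genes named by rule were, per comparison, the 6 risen and 6 fallen solute carriers with the largest change, at least 10 FPKM in the higher group and groups that do not overlap; the 4 highest per class; and a fixed set of textbook carriers, of which Slc5a1, Slc16a3, Slc38a1, Slc38a2 and Slc29a1 were not expressed by the rule. These members, classes, partner genes and lists were chosen with earlier results of these data known. The fit was tested on simulated data. Alternatives covered the pseudocount, the filter, scaling, repeated accessions, separate 2C libraries, a replicate block, the trend and each library left out in turn. Promoter windows were the 250 bases before each start in RefSeq (GRCm38.p6), given for 151 of the 198 genes. Some genes named by the rule are not reported here.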

Additional observations from a re-analysis of the deposited data

Results flagged for a closer look

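For 5 solute carriers the difference of CX45 from 8C and that of CX22 from 2C passed limma's test of the gap between them (adjusted p under 0.05 over all genes tested). This held for 2.53% of the 198, against 3.6% of all genes tested. The gap on the log2(FPKM + 1) scale was 2.58 for Slc25a53, 1.83 for Slc46a3, 1.82 for Slc7a15, 1.77 for Slc9a4 and 1.45 for Slc25a29. All 5 had between 1.74 and 6.27 FPKM in the 2C libraries and no more than 0.365 in any other, so they counted as expressed through 2C alone. With 8C, CX45 and CX22 all near 0, the gap restates the level in 2C and is no separate finding about CX45 or CX22. None of the 5 calls was made without the trend in the spread, without an 8C replicate or under quantile normalization. Without a CX22 replicate 10 and 13 solute carriers were called, and without either CX45 replicate 9 were.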

How the results depend on the processing

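The main counts of solute carriers called were 55 in 8C against 2C, 7 in CX22 against 2C, 1 in CX45 against 8C, 55 in CX45 against CX22 and 5 for the difference of differences. With 8 separate libraries they were 106 in 8C against 2C, 36 in CX22 against 2C, 17 in CX45 against 8C and 33 for the difference of differences. With the replicate number as a block they were 101, 29, 11 and 26 in that order; same-numbered libraries did not deviate together (correlations of -0.001 to 0.105), so the numbers were not taken as pairs. A filter of 5 FPKM gave 1 in CX22 against 2C and 1 for the difference of differences. Quantile normalization gave 4 in CX22 against 2C and 0 both in CX45 against 8C and for the difference of differences. Without the trend there was 1 in CX22 against 2C and 0 in CX45 against 8C and for the difference of differences. In CX45 against 8C a pseudocount of 0.1 FPKM gave 2, and no filter or median-ratio scaling gave 0. Leaving out 1 library at a time gave 14 to 86 in 8C against 2C, 4 to 14 in CX22 against 2C, 0 to 1 in CX45 against 8C, 29 to 59 in CX45 against CX22 and 0 to 13 for the difference of differences; the cause was not tested. None of the log2 fold changes behind the named calls that were checked changed sign under the alternatives. Many class medians did under another scaling, as given with the classes. With 3 residual degrees of freedom and 2 libraries a group, small changes may go uncalled, and genes near 0.15 FPKM rest on about 3 fragments.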
